A study of Felis catus with 12 samples.

Results

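The 10 genes described here encode the proteins that release, take up, store and exchange calcium in heart muscle cells. They are RYR2, PLN, ATP2A2, CASQ2, CACNA1C, SLC8A1, SLN, TRDN, HRC and SRL, picked by symbol among the 30785 genes of the deposited table, and all 10 were in it. Their reads were followed in 12 cats, and 9 of the 10 genes had enough reads to be tested, while SLN had 3 reads in total.

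With each heartbeat, the L-type channel in the cell membrane lets a little calcium in, which opens the ryanodine receptor of the sarcoplasmic reticulum and frees the larger store that drives contraction. The cell relaxes as the SERCA pump returns calcium to the reticulum and the sodium-calcium exchanger carries the remainder out of the cell. The pump is held back by small membrane peptides, and the store is kept near the release site by calcium-binding proteins.

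The libraries were made from left ventricular free wall of client-owned domestic cats, collected post mortem, with 1 library per cat read by direct RNA sequencing on Oxford Nanopore flow cells. The labels give 3 flow cells with 4 libraries each, lettered here as A (cats 11, 23, 30 and 31), B (cats 10, 15, 35 and 36) and C (cats 22, 29, 37 and 38). Outcome is not in the labels and was looked up in the study by cat number: 6 cats had congestive heart failure (HF), 3 had arterial thromboembolism (ATE) and 1 (cat 36) had no known cardiac death. Cats 22 and 29 entered no comparison of outcome or trait, except in named alternatives, because the labels and the study's list of sequenced cats differ for them. The labels give no experimental treatment and no genotype. The comparator of known outcome was a single cat, and healthy hearts were not a group among these libraries.

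Values are reads on a gene divided by a size factor for the library, called normalised reads below. The libraries held 789257 to 2263110 reads on genes, and 1 read was worth 0.483 to 1.43 normalised reads. The deepest library was that of cat 11, and the shallowest that of cat 23. A gene was tested if it had at least 10 reads in at least 3 libraries, which 8820 genes did. The heart muscle identity of the samples was clear, since 13 of 13 cardiomyocyte markers found in the table were tested and their summed level was 163034 to 420150 normalised reads.

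**Figure D1:**
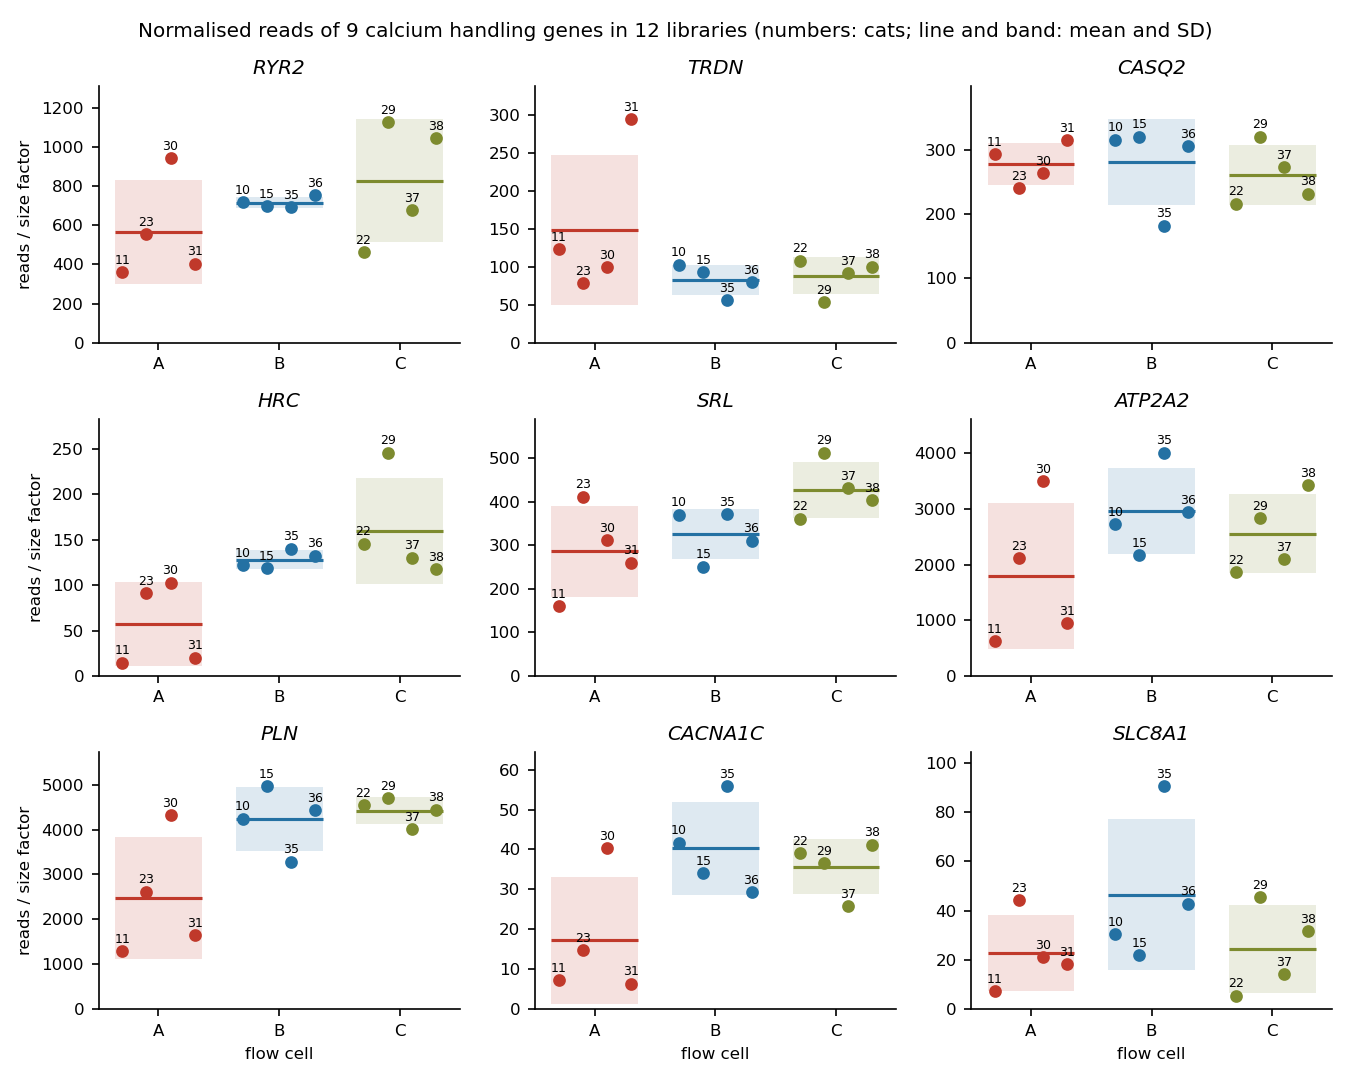
Normalised reads (vertical axes, linear, from 0) of the 9 tested genes in the 12 libraries, by flow cell (horizontal axes), with each point labelled by cat and the line and band giving the mean and SD of the 4 libraries of a flow cell. Cats 11 and 31 lie lowest for HRC, PLN, ATP2A2, RYR2 and CACNA1C, whereas for TRDN cat 31 lies highest, at 294.

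The release channel RYR2, the cardiac ryanodine receptor, had 361, 555, 942 and 404 normalised reads in cats 11, 23, 30 and 31 of flow cell A. It had 719, 696, 693 and 755 in cats 10, 15, 35 and 36 of flow cell B, and 463, 1127, 678 and 1045 in cats 22, 29, 37 and 38 of flow cell C. Cats 11 and 31 were thus the lowest libraries and cat 29 the highest, and the libraries of flow cell B lay within a narrow band with an SD of 28.7 around a mean of 716.

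TRDN encodes triadin, which anchors calsequestrin to the release channel. It had 123, 77.9, 99.3 and 294 normalised reads in cats 11, 23, 30 and 31, the last of these the highest of all. In flow cell B it had 103, 92.6, 55.9 and 79.2 (cats 10, 15, 35 and 36), and in flow cell C 108, 53.2, 91.6 and 100.01 (cats 22, 29, 37 and 38). The 2 libraries with the lowest RYR2 therefore had the highest TRDN. The ratio of TRDN to RYR2 was 0.341 in cat 11 and 0.727 in cat 31, and between 0.0472 and 0.233 in the other libraries. A long noncoding RNA gene, LOC109499882, overlaps TRDN in the RefSeq annotation of a newer cat assembly and had 294 to 946 normalised reads. It was lowest in cat 11, and its difference between flow cell A and the others was -0.49 on the log2 scale (SE 0.24, limma adjusted p = 0.241), opposite in sign to that of TRDN. Whether reads were assigned by strand is not given in the sources used here, so the split of reads between both genes is uncertain.

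CASQ2 encodes calsequestrin, the main calcium buffer inside the reticulum. Its values were 293, 240.4, 263 and 314 in cats 11, 23, 30 and 31, then 316, 319.97, 182 and 305 in cats 10, 15, 35 and 36, and 216, 320.3, 273 and 232 in cats 22, 29, 37 and 38. It varied least of the 9 calcium genes tested, with a coefficient of variation over the 12 libraries of 17.0%, against 6.12% from counting alone. The flow cells overlapped fully. Its lowest value was in cat 35.

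HRC encodes the histidine-rich calcium-binding protein of the reticulum lumen, which binds both triadin and SERCA. It had 14.5, 91.3, 103 and 19.9 normalised reads in cats 11, 23, 30 and 31. The flow cell B libraries had 122, 118, 140.2 and 133 (cats 10, 15, 35 and 36), and those of flow cell C 146, 246, 130.2 and 118 (cats 22, 29, 37 and 38). All 4 values of flow cell A lay below all 8 others, and those of cats 11 and 31 rested on 30 and 25 reads. The highest value was 17.0 times the lowest, the widest relative range of the 9 genes.

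SRL encodes sarcalumenin, a luminal glycoprotein that binds calcium along the free reticulum. Its values were 159, 411, 311 and 260.02 in cats 11, 23, 30 and 31, followed by 369.7, 251, 371 and 309.9 in cats 10, 15, 35 and 36. The values in cats 22, 29, 37 and 38 were 360.5, 512, 431 and 403. Cat 11 was again lowest and cat 29 highest, but otherwise the flow cells overlapped.

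ATP2A2 encodes the cardiac SERCA pump. It had 624, 2111, 3505 and 948 normalised reads in cats 11, 23, 30 and 31. In cats 10, 15, 35 and 36 it had 2723, 2174, 4012 and 2939, and in cats 22, 29, 37 and 38 it had 1867, 2835, 2103 and 3428. Cats 11 and 31 lay below the 10 other libraries, and the highest value was 6.43 times the lowest.

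PLN encodes phospholamban, the peptide that inhibits SERCA until it is phosphorylated. Its values were 1294, 2618, 4326 and 1645 in cats 11, 23, 30 and 31, then 4245, 4973, 3282 and 4437 in cats 10, 15, 35 and 36, and 4542, 4697, 4009 and 4444 in cats 22, 29, 37 and 38. In flow cell A, 3 of 4 libraries lay below all others, whereas cat 30 lay among them. PLN did not simply follow its target. The ratio of PLN to ATP2A2 normalised reads ranged from 0.818 in cat 35, which had the most ATP2A2, to 2.43 in cat 22. In cats 11 and 31, where both genes were lowest, the ratio was 2.07 and 1.73.

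SLN encodes sarcolipin, a related SERCA inhibitor known mainly from atrium and skeletal muscle. It had 2 reads in cat 23, 1 read in cat 10 and 0 in the 10 other libraries, so it was not tested. A count of 0 allows up to 3 reads, or 1.45 to 4.29 normalised reads in those 10 libraries, a limit that covers counting error only. Of the atrial markers, BMP10 was at 0 in all 12 libraries, and NPPA, which diseased ventricle also makes, had 62.1 to 3717 normalised reads. MYL7, an atrial light chain, reached 617 in cat 35, where SLN had 0 reads. SLN was therefore at or under the detection limit in each library.

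CACNA1C encodes the pore of the L-type calcium channel. Its values were low, at 7.24, 14.8, 40.4 and 6.38 normalised reads in cats 11, 23, 30 and 31. They were 41.7, 34.04, 55.9 and 29.4 in cats 10, 15, 35 and 36 and 39.2, 36.6, 25.8 and 41.2 in cats 22, 29, 37 and 38. As for PLN, 3 of 4 libraries of flow cell A lay below all others and cat 30 lay among them. Between 8 and 71 reads stood behind each value, and counting alone gave a coefficient of variation of 18.1%, against 48.6% observed.

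SLC8A1 encodes the cardiac sodium-calcium exchanger. It had 7.24, 44.3, 21.0 and 18.3 normalised reads in cats 11, 23, 30 and 31, 30.4, 21.8, 90.6 and 42.7 in cats 10, 15, 35 and 36, and 5.40, 45.4, 14.3 and 31.6 in cats 22, 29, 37 and 38. It was the most variable of the 9 genes, with a coefficient of variation of 74.6% against 18.1% from counting. The flow cells overlapped, and cat 35 stood above the other libraries.

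Taking the libraries one by one, cat 11 held the lowest value of 5 of the 9 genes, whereas 13.4% of all tested genes were lowest in that library. Cat 29 held the highest value of 4 of the 9, where 9.60% of all tested genes were highest. The 10 genes together took 0.264% of the reads in cat 11 and 0.308% in cat 31, and between 0.577% and 0.940% in the other libraries. In bulk tissue, fewer heart muscle cells and less of a transcript per cell cannot be told apart.

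The flow cells were compared first, as the only grouping that the labels give. Each flow cell held different cats, so differences between flow cells and between these cats cannot be told apart. Flow cell A had lower HRC, CACNA1C and PLN than the mean of B and C (3 of 9 tested genes, limma on log2(value + 1), Benjamini-Hochberg adjustment over 8820 genes). Across all tested genes, 474 were called (5.37%), of which 314 were lower (3.56%) and 160 higher. With libraries scaled by total reads in place of size factors, 482 were called and 69.5% of them were higher, against 33.8% under the deposited scaling. HRC differed by -1.75 on the log2 scale (SE 0.43, adjusted p = 0.0273), CACNA1C by -1.43 (SE 0.38, adjusted p = 0.0397) and PLN by -0.96 (SE 0.26, adjusted p = 0.0424). Non-overlap of the 4 libraries of flow cell A below the 8 others, which HRC alone of the 9 genes had, was found in 2.51% of all tested genes.

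The 6 other genes did not pass the test. The difference was -0.89 for ATP2A2 (SE 0.36, adjusted p = 0.154), -0.51 for RYR2 (SE 0.27, adjusted p = 0.278) and -0.45 for SRL (SE 0.23, adjusted p = 0.259). It was -0.51 for SLC8A1 with a wide SE of 0.52 (adjusted p = 0.611). TRDN and CASQ2 had the opposite sign, at 0.64 (SE 0.31, adjusted p = 0.245) and 0.06 (SE 0.20, adjusted p = 0.894). Over the 9 genes the median difference was -0.51, and over all tested genes it was 0.03.

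**Figure D2:**
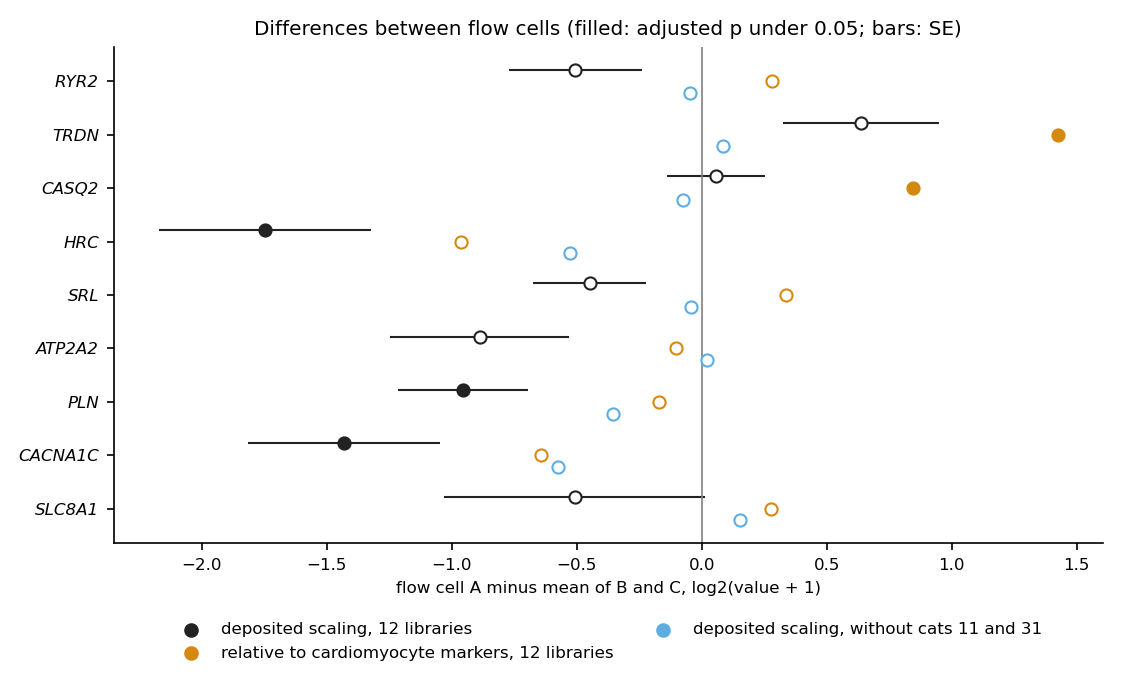
Difference between flow cell A and the mean of flow cells B and C for each gene on the log2(value + 1) scale (horizontal axis), with black points and SE bars for the deposited scaling, orange points for levels relative to the cardiomyocyte markers, and blue points for the deposited scaling without cats 11 and 31. Filled points passed an adjusted p of 0.05. The 3 filled black points are HRC at -1.75, CACNA1C at -1.43 and PLN at -0.96, and no blue point is filled.

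These 3 calls rested on few libraries. Without cat 11, none of the 9 genes was called (54 of all tested genes were), and none was called without cat 31 (165 of all). The differences without cat 11 and without cat 31 were -1.27 and -1.41 for HRC, -1.17 and -1.12 for CACNA1C and -0.70 and -0.81 for PLN. Without both cats, 0 of all tested genes were called, and the differences were -0.53 for HRC (adjusted p = 0.531), -0.57 for CACNA1C (adjusted p = 0.661) and -0.35 for PLN (adjusted p = 0.663). On the whole reads, edgeR's quasi-likelihood test called none of the 3 genes, at log2 differences of -1.34 for HRC, -1.15 for CACNA1C and -0.80 for PLN (adjusted p = 0.0857, 0.124 and 0.0957, with 5.31% of all tested genes called), whereas DESeq2 called HRC and PLN (9.43% of all).

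Some heart muscle and stromal markers also differed between the flow cells. Of the 13 tested cardiomyocyte markers, 7 were called lower in flow cell A (TCAP, TNNT2, MYL3, TNNI3, MB, MYH6 and TNNC1) and 0 higher. The list did not move as 1: 10 differences were negative and 3 positive (ACTC1 at 0.59, MYOZ2 at 0.28 and TTN at 0.05). MYL2 differed by only -0.16, and the median difference of the list was -0.91. The summed level was 163034 to 232207 in flow cell A and 173491 to 420150 in the 8 others. Of the 8 fibroblast markers, 4 were called higher (COL1A1, COL3A1, COL1A2 and POSTN), whereas FBLN1 was at -0.51. The median difference of the 8 was 1.34, and their summed level was 1256 to 3471 against 359 to 1931. Of the 6 smooth muscle markers, CNN1 and TAGLN were called higher, with summed levels of 443 to 1334 against 129 to 363, without overlap. Within flow cell A, this sum was 1166 and 1334 in cats 11 and 31 and 478 and 443 in cats 23 and 30. The libraries lowest in HRC, PLN and ATP2A2 thus had the highest sum. TAGLN (744 and 724) and CNN1 (259 and 439) made up most of it in cats 11 and 31. Compared with cats 23 and 30, PDGFRB was also higher in these cats, MYH11 and ACTA2 were lower, and RGS5 overlapped. The fibroblast sum was instead highest in cat 23. The part of these in the result was not tested. Measured relative to the mean of the cardiomyocyte markers, the median of all tested genes was 0.82 higher in flow cell A. On that scale PLN differed by -0.17 (adjusted p = 0.543), CACNA1C by -0.64 (adjusted p = 0.192) and HRC by -0.96 (adjusted p = 0.0502), while TRDN was higher by 1.42 (adjusted p = 0.00635) and CASQ2 by 0.85 (adjusted p = 0.00766). These 2 of 9 genes stand beside 3628 of all tested genes called on that scale (41.1%), of which 98.9% were higher, and the CASQ2 difference lay close to the median of all tested genes. RYR2, SLC8A1 and SRL were at 0.28, 0.28 and 0.34, below that median.

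Between flow cells B and C, none of the 9 genes was called by limma, and 0 of all tested genes were (0%), with 696 at an unadjusted p under 0.05. edgeR also called 0 genes and DESeq2 called 23. Fibroblast markers differed here too: all 8 were lower in B than in C, with a median of -1.44, and 0 were called. POSTN differed by -3.93 (limma adjusted p = 0.137) and COL1A2 by -2.13 (limma adjusted p = 0.228). The largest difference among the 9 was 1.07 for SLC8A1 (B minus C, SE 0.60, adjusted p = 0.684), and the smallest in size was -0.08, shared by PLN (95% interval -0.71 to 0.56) and TRDN (-0.84 to 0.68).

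The remaining calcium machinery was followed with 90 other genes in 8 lists, of which 89 were in the table and 66 were tested. In flow cell A, 3 of the 66 were called higher and 0 lower, against 1.81% and 3.56% of all tested genes, and the median difference of the 66 was -0.10 on the log2 scale. PPP1CB, a catalytic subunit of the phosphatase that acts on phospholamban, was higher by 0.90 (SE 0.17, adjusted p = 0.00936), with 568 to 803 normalised reads in flow cell A and 270.2 to 525 in the others. FKBP1A, which encodes a binding protein of ryanodine receptors, was higher by 0.93 (SE 0.25, adjusted p = 0.0408), at 200.1 to 319 against 84.4 to 197.

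Among the 17 tested genes of the release unit and dyad, 1 was called (FKBP1A). The most read of this list, S100A1 and CAV3, differed by -0.53 (adjusted p = 0.206) and -0.49 (adjusted p = 0.179). Of 8 reticulum calcium buffers, which include calnexin (CANX), none was called, although all 8 differences were positive, with a median of 0.40. Of 7 mitochondrial calcium genes, none was called and 6 were negative, with SMDT1, a uniporter subunit, at -0.37 (adjusted p = 0.237). Of 7 channel genes beside CACNA1C, none was called and 5 were negative, and RRAD, an inhibitor of the L-type channel, was at 0.32 (adjusted p = 0.531). Of the 18 tested calmodulin, kinase and phosphatase genes, 1 was called higher. The most read of them, CALM2 and CAMK2D, were not called, at 0.47 (adjusted p = 0.197) and -0.40 (adjusted p = 0.253). The 2 genes of calcium extrusion (ATP2B4 and ATP2B1) and the 1 of store-operated entry (ORAI3) that were tested did not pass. In the comparisons of flow cells B and C, of outcome and of both traits, 0 of the 66 genes were called.

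Whether the members varied together was asked by correlating all 36 pairs over the 12 libraries (log2 values, 100000 random permutations for raw values and all 13824 orders within flow cells for values centred on their flow cell). RYR2 and ATP2A2, release channel and pump, correlated with Pearson r = 0.847 (permutation p = 0.000290, adjusted over 36 pairs p = 0.00708) and Spearman rho = 0.797 (permutation p = 0.00251, adjusted p = 0.0632). Within flow cells r was 0.825 (exact permutation p = 0.00441, adjusted p = 0.0794), and without cats 11 and 31, the 2 libraries farthest from the median of RYR2, it was 0.663. ATP2A2 and SLC8A1 correlated with r = 0.670 (permutation p = 0.0171, adjusted p = 0.0411) and rho = 0.706 (permutation p = 0.0135, adjusted p = 0.121). Within flow cells r was 0.681 (exact permutation p = 0.0123, adjusted p = 0.118), and without cats 11 and 31 it was 0.670. The random permutations of raw values also moved values between flow cells. Within flow cells no pair passed adjustment, and SLC8A1 and SRL (r = 0.771, exact permutation p = 0.00412) shared the smallest adjusted p of 0.0794. How often pairs of other tested genes correlate this strongly was not counted.

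ATP2A2 and CACNA1C, pump and channel pore, correlated with r = 0.899 (permutation p = 0.000590, adjusted p = 0.00708) and rho = 0.762 (permutation p = 0.00576, adjusted p = 0.0691). Within flow cells r was 0.870 (exact permutation p = 0.0163, adjusted p = 0.118), and it was 0.603 without cats 11 and 31.

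The other high positive correlations also fell when these 2 cats were left out. For example, r moved from 0.869 to 0.067 for ATP2A2 and HRC, and from 0.891 to 0.495 for PLN and CACNA1C. It moved from 0.887 to 0.367 for CACNA1C and HRC, and from 0.770 to 0.389 for RYR2 and PLN. The highest correlation was that of PLN and HRC, with r = 0.928 over 12 libraries (permutation p = 0.000560, adjusted p = 0.00708) and rho = 0.615 (permutation p = 0.0367, adjusted p = 0.189). It fell to r = 0.437 without cats 11 and 31. Centred on flow cells, r was 0.842 (exact permutation p = 0.0626, adjusted p = 0.186). The pump and its inhibitor, ATP2A2 and PLN, had r = 0.828 (permutation p = 0.00612) and rho = 0.364 (permutation p = 0.245). Within flow cells r was 0.767 (exact permutation p = 0.120, adjusted p = 0.215), but without cats 11 and 31 r was -0.01. The relation of PLN to ATP2A2 thus rested on those 2 libraries. CASQ2 had correlations between -0.38 and 0.31 with the 8 other genes. Over the 12 libraries, TRDN was negatively correlated with all but CASQ2. Without cats 11 and 31, its r moved from -0.56 to 0.30 with PLN and from -0.68 to -0.06 with CACNA1C. In those libraries TRDN stayed negatively correlated with RYR2, ATP2A2, SLC8A1, HRC and SRL (r between -0.739 and -0.295). By Spearman's rho its closest negative partner was SLC8A1, with rho = -0.790 (permutation p = 0.00351, adjusted p = 0.0632) and r = -0.548 (permutation p = 0.0654). Within flow cells r was -0.540 (exact permutation p = 0.104), and it was -0.739 when cats 11 and 31 were left out. Leaving out cats 22 and 35, the most distant from the median of SLC8A1, gave -0.514. By Pearson's r the closest was HRC, at r = -0.758 (permutation p = 0.00519) and rho = -0.545 (permutation p = 0.0715). Within flow cells this was -0.675 (exact permutation p = 0.0492, adjusted p = 0.182), and it was -0.490 once cats 31 and 29, most distant from the median of TRDN, were left out. Pairs in which 1 library held few reads of a gene carry its counting error on both scales.

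**Figure D3:**
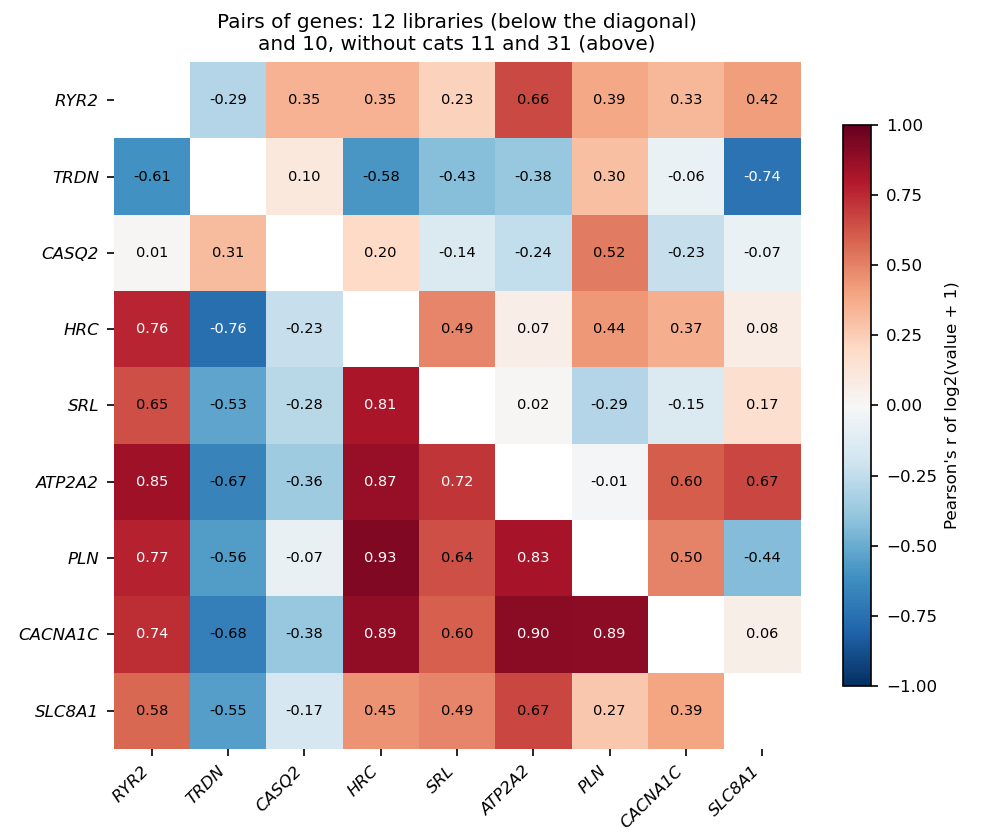
Pearson correlation of log2(value + 1) between each pair of the 9 genes (rows and columns), over 12 libraries below the diagonal and over 10 libraries, without cats 11 and 31, above it. PLN and ATP2A2 stand at 0.83 below the diagonal and -0.01 above it, whereas RYR2 and ATP2A2 stand at 0.85 and 0.66.

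For 8 of the 9 genes, the tested gene with the most similar pattern over the 12 libraries was found on values centred within flow cells, as a description of 12 points that share 3 flow cells. None of the genes named was one of the 10. Each r is the highest found among all tested genes, so its size was selected and was not tested. INHA was likest to ATP2A2 (r = 0.982) and KLF9, a transcription factor, was likest to PLN (r = 0.954). The others were CPEB3 for CACNA1C (r = 0.975), TRMT10A for TRDN (r = 0.962), DPF3 for RYR2 (r = 0.952, with 1 to 18 reads per library), GYS1 for SRL (r = 0.937), PTP4A3 for SLC8A1 (r = 0.912) and ZDHHC16 for CASQ2 (r = 0.907). Second in order were PAIP2B, LOC101088897, SMG5, GNG5, RORA, SCAMP1, TRIM72 and OST4 for these 8 genes in the same order. Of these, LOC101088897 had 7 to 24 reads per library, RORA 5 to 21 and TRIM72 4 to 96.

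Outcome was compared between the 6 cats with congestive HF and the 3 with ATE. The groups were not balanced over flow cells. HF cats 11, 30 and 31 were on flow cell A, 15 and 35 on B and 37 on C, and ATE cats 23, 10 and 38 on A, B and C. Outcome and flow cell were thus partly mixed. With flow cell as covariate, 0 of the 9 genes were called. The study's captions describe the ATE group as HF with ATE, and its cohort list gives heart failure for cat 10. The contrast is therefore not one of HF against its absence. None of the 9 genes was called by limma, and 0 of all tested genes were (0%), with 391 at an unadjusted p under 0.05. edgeR called 0 genes and DESeq2 called 1. In cats with HF the lowest, median and highest values of ATP2A2 were 624, 2139 and 4012, and in cats with ATE the values were 2723, 2111 and 3428 (cats 10, 23 and 38), inside the range of the HF cats. PLN had 1294, 3645 and 4973 in HF, and 4245, 2618 and 4444 in ATE. RYR2 had 361, 686 and 942 in HF, and 719, 555 and 1045 in ATE. The groups overlapped for each of these genes.

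Differences were estimated with wide intervals. The HF minus ATE difference was -0.77 for HRC (95% interval -2.20 to 0.66, adjusted p = 0.956) and -0.71 for SLC8A1 (-1.93 to 0.50). It was -0.56 for ATP2A2 (-1.66 to 0.54), -0.48 for SRL (-1.12 to 0.17), -0.43 for CACNA1C (-1.81 to 0.94), -0.34 for PLN (-1.26 to 0.58) and -0.32 for RYR2 (-1.04 to 0.39). TRDN was at 0.23 (-0.64 to 1.11) and CASQ2 at 0.05 (-0.49 to 0.59). Among the 9 genes, 7 were negative, against 50.2% of all tested genes. Cats 11 and 31 both had HF, and without them ATP2A2, PLN, HRC and CACNA1C turned positive, to 0.07, 0.16, 0.16 and 0.34.

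**Figure D4:**
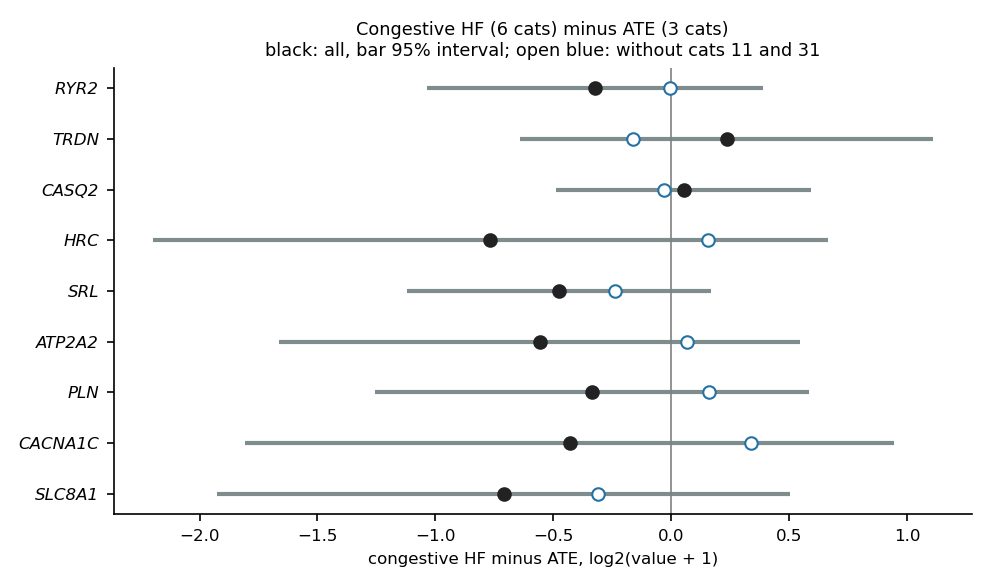
Difference between congestive HF (6 cats) and ATE (3 cats) for each gene on the log2(value + 1) scale (horizontal axis), with the 95% interval from limma as a bar and open points for the difference without cats 11 and 31. All 9 intervals include 0, and the open points lie between -0.31 and 0.34.

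Myocardial fibrosis, measured by the study on the neighbouring section, was related to each gene by Spearman's rho in 8 cats. None of the 9 genes was called after adjustment, and 0 of all tested genes were (0%), with 250 at an unadjusted p under 0.05. limma's slope also called 0 genes. With 8 cats the smallest p that the 40320 orders allow is 4.96e-05, so that 9 or more genes at this p would have been needed for a call among 8820. Under the deposited scaling, ATP2A2 had the rho of largest size among the 9 genes, with less of the pump transcript in cats with more fibrosis (rho = -0.929, p = 0.00223 by a two-sided exact permutation test, 1 after adjustment). Of all tested genes, 0.136% (12, ATP2A2 included) had a p this small. That is fewer than chance alone is expected to give at an exact permutation p of 0.00223. On leaving out each cat in turn, rho ranged from -1 to -0.893.

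Other measures of this relation were weaker. Pearson's r of ATP2A2 with fibrosis was -0.419 (exact permutation p = 0.327), and it was -0.722 once the 2 cats most distant from the median fibrosis (23 and 15) were left out. Within flow cells, which left 7 cats, rho was -0.643 (exact permutation p = 0.201). With total fibrosis it was -0.833, and with cats 22 and 29 entered under the traits of those numbers -0.891. ATP2A2 was not first among the 9 genes by each measure. With total-read scaling its rho was -0.786 and that of CACNA1C was -0.833, and relative to the cardiomyocyte markers they were -0.690 and -0.833. Pearson's r was also larger in size for CACNA1C, at -0.474.

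CACNA1C had a rho of -0.690 (exact permutation p = 0.0694), RYR2 -0.524 (exact permutation p = 0.197) and HRC -0.500 (exact permutation p = 0.216). CASQ2, the buffer, had the opposite sign at 0.524 (exact permutation p = 0.197). SLC8A1, PLN, SRL and TRDN had -0.190, -0.143, -0.143 and 0.143. All adjusted p-values were 1. Pearson's r of these 8 genes with fibrosis lay between -0.474 for CACNA1C and 0.426 for CASQ2 (exact permutation p from 0.224 to 0.772), and once cats 23 and 15 were left out it was 0.774 for CASQ2, 0.730 for TRDN and between -0.661 and -0.459 for the 6 others. The study named RYR2, PLN and CACNA1C in its fibrosis results on mostly the same cats, so their signs are no independent evidence. Within flow cells rho was -0.464 for CACNA1C, -0.429 for RYR2 and 0.07 for PLN.

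**Figure D5:**
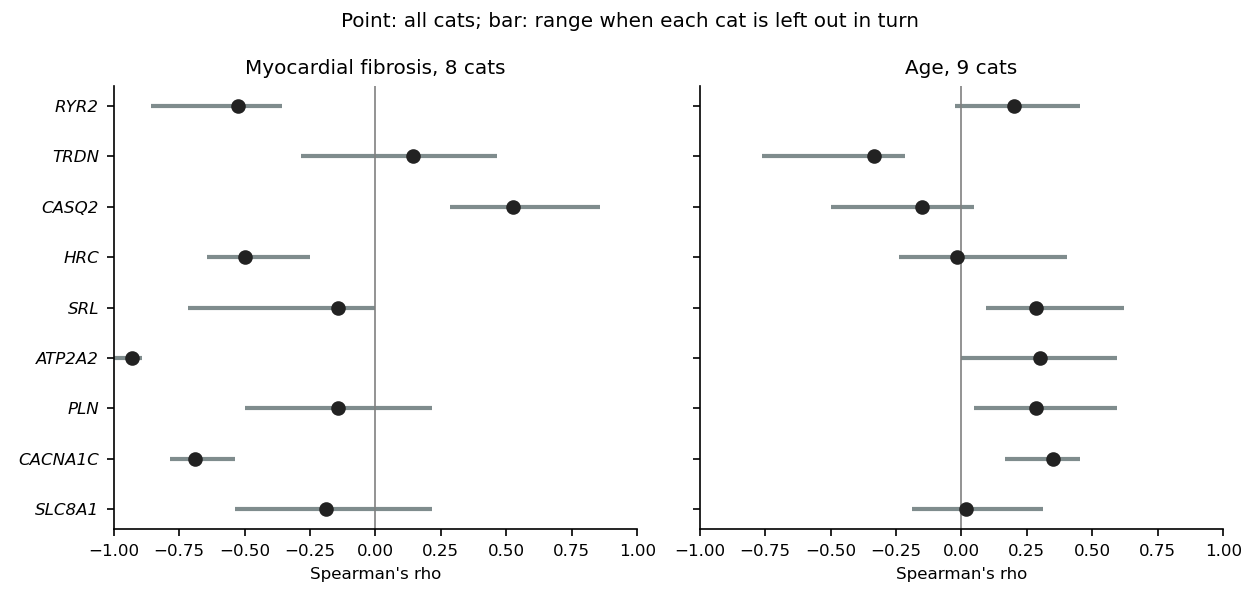
Spearman's rho of each gene with myocardial fibrosis (left, 8 cats) and age (right, 9 cats), with points for all cats and bars for the range when each cat was left out in turn. ATP2A2 lies at -0.929 for fibrosis with a bar from -1 to -0.893, and for age the points lie between -0.333 and 0.350.

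With age in 9 cats, rho ranged from -0.333 for TRDN (exact permutation p = 0.385) to 0.350 for CACNA1C (exact permutation p = 0.359). The rho of ATP2A2 was 0.300 (exact permutation p = 0.437) and those of PLN and RYR2 were 0.283 and 0.200. None of the 9 genes was called, with a smallest adjusted p of 0.976, and 0 of all tested genes were (0%), with 416 at an unadjusted p under 0.05. limma's slope called 0 genes as well. Pearson's r lay between -0.400 for TRDN and 0.428 for HRC (exact permutation p from 0.256 to 0.834). Once cat 30 and either cat 15 or cat 36, which are equally distant from the median age, were left out, it lay between -0.494 and 0.5998 or between -0.711 and 0.677. Within flow cells, PLN had a rho of 0.767 (exact permutation p = 0.153, adjusted p = 0.702) and HRC moved from -0.0167 to 0.6 (exact permutation p = 0.264).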

How the data were processed

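Direct RNA libraries of left ventricle from 12 cats were analysed. Per the labels, reads were mapped with minimap2 and counted with featureCounts. The study's methods add base calling with Guppy, a quality score above 7 and the felCat9 genome. The deposited signal values are, per gene, whole reads over 1 size factor for each library: 100% of values were whole multiples of 1 read (tolerance 1e-06 reads), which gave back the reads. The 10 genes and the lists were chosen with earlier results of these data known. Tested genes had 10 or more reads in 3 or more libraries. Groups were compared with limma (intensity trend) on log2(value + 1), which understates changes of low genes, and traits by Spearman's rho with exact permutation of cats. p-values were adjusted by Benjamini-Hochberg over 8820 genes. The tests were tried on simulated data with a common dispersion and larger changes than those reported between flow cells. That trial does not bear on the calls made or missed here. All 10 members are named. Other calcium genes are named where called or as the most read of their list, and for each member the 2 genes likest in pattern. Some genes that this rule names are not reported here.

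Alternatives were total-read, TMM and cardiomyocyte-marker scaling, other filters, pseudocounts of 0.5 and 2, edgeR's quasi-likelihood test and DESeq2 on whole reads, Pearson's r, limma slopes, centring on flow cells, flow cell as covariate, total fibrosis, cats 22 and 29 entered, and each library left out. Leaving out cats 11 and 31 together was chosen after seeing the data. With 1 library per cat, depth of 789257 to 2263110 reads and no replicate libraries, p-values measure the spread between cats. Statistics used limma 3.58.1, edgeR 4.0.16 and DESeq2 1.42.0 under R 4.3.3, and scipy 1.17.1, numpy 2.4.6 and pandas 2.3.3 under Python 3.11.15. Figures were drawn with matplotlib 3.10.9.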

Additional observations from a re-analysis of the deposited data

Results flagged for a closer look

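In groups of 4 libraries of a flow cell and in the 6 cats with congestive HF, 36 combinations of gene and group were checked for 1 library far from the rest, of which chance flags about 1 in 20. There were 3 such values. CASQ2 had 182 normalised reads in cat 35, where the other libraries of flow cell B had 305 to 319.97. SLC8A1 had 90.6 in cat 35, where the 5 other cats with HF had 7.24 to 21.8, and this library also had the most CACNA1C (55.9) and ATP2A2 (4012). TRDN had 294 in cat 31, where the 5 other cats with HF had 55.9 to 123. These values rest on 231, 115 and 368 reads, and their cause was not tested.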

How the results depend on the processing

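The differences between flow cell A and the others depended most on single libraries and on scaling. The count of called genes (474) was 3628 relative to cardiomyocyte markers and 832 with DESeq2, and 54 to 529 when each library was left out. Of the 9 tested calcium genes, 3 were called, but 1 with total-read scaling, 1 with no filter, 0 with edgeR and 0 to 4 when each library was left out. Without cats 11 and 31, 0 genes and 0 of the 9 were called. Relative to cardiomyocyte markers RYR2, SLC8A1 and SRL were at 0.28, 0.28 and 0.34, and without cats 11 and 31 ATP2A2, CASQ2 and SLC8A1 were at 0.0213, -0.0761 and 0.153. CASQ2 ranged from -0.0395 to 0.125 when each library was left out. The cause of these shifts was not tested.

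Between flow cells B and C, 0 genes became 1 relative to cardiomyocyte markers, 1 with a pseudocount of 2, 23 with DESeq2 and 0 to 2 when each library was left out. CASQ2 was at -0.0484 relative to cardiomyocyte markers. When each library was left out, RYR2 ranged from -0.375 to 0.0524, PLN from -0.159 to 0.0406, CACNA1C from -0.0173 to 0.285 and TRDN from -0.303 to 0.0932. For HF minus ATE, DESeq2 called 1 gene and leaving out each library gave 0 to 1. RYR2 and PLN were at 0.0585 and 0.0470 relative to cardiomyocyte markers. Without cats 11 and 31, PLN was at 0.16, ATP2A2 at 0.0679, CASQ2 at -0.0310, CACNA1C at 0.34, TRDN at -0.16 and HRC at 0.16. CASQ2 ranged from -0.0298 to 0.193 and TRDN from -0.0486 to 0.426 when each library was left out.

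For fibrosis, rho of PLN was 0.0714 within flow cells and 0.0667 with cats 22 and 29 entered, and with total fibrosis it was 0.0238 for SLC8A1 and 0 for SRL. When each cat was left out, PLN ranged from -0.500 to 0.214, SLC8A1 from -0.536 to 0.214, TRDN from -0.286 to 0.464 and SRL from -0.714 to 0. For age, HRC was at 0.617 with total-read scaling, 0.783 relative to cardiomyocyte markers, 0.6 within flow cells, 0.428 as Pearson's r and 0.0925 log2 units per year as a slope. CASQ2 was at 0.167 with total-read scaling, and CASQ2 and TRDN at 0.1 and 0 relative to cardiomyocyte markers. With cats 22 and 29 entered, RYR2, SLC8A1 and SRL were at -0.0636, -0.209 and -0.0273. Without cats 11 and 31, RYR2, PLN and ATP2A2 were at -0.286, -0.107 and -0.0714, CASQ2 at 0.0714, and CACNA1C, SLC8A1 and SRL at -0.143, -0.464 and -0.107. When each cat was left out, RYR2 ranged from -0.0238 to 0.452, ATP2A2 from 0 to 0.595, CASQ2 from -0.500 to 0.0476, SLC8A1 from -0.190 to 0.310 and HRC from -0.238 to 0.405. The rho of ATP2A2 with fibrosis kept its sign under each alternative run.

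No paired analysis was possible because each cat gave 1 library and the cat numbers are not shared between groups. Depth limits CACNA1C, SLC8A1 and SLN, whose values rest on few reads.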
